A study of Homo sapiens with 8 samples.

Results

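Ribosomal protein pseudogenes are copies of the genes for the proteins of the ribosome that carry a parent gene's symbol followed by P and a number. They were taken by symbol: the Ensembl gene of each line was given its HGNC symbol, and every symbol that names a copy of a large-subunit (RPL), small-subunit (RPS), stalk (RPLP) or RPSA gene was kept. Of the 17546 genes in the expression table, 169 met this rule, with 114 copies of large-subunit genes and 55 of small-subunit genes. GENCODE 29 lists 151 of them as processed pseudogenes and 15 as transcribed processed pseudogenes. The other 3 differ in kind: RPL32P3 and RPL23AP82 are annotated as transcribed unprocessed pseudogenes, and RPS27AP5 as protein coding. The 169 copies come from 61 parent genes, of which 60 were measured. RPS18 is not among the genes analysed here, so its copies RPS18P5, RPS18P9 and RPS18P12 have no parent value, and 166 pairs of pseudogene and parent remained.

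The study profiled polyadenylated RNA of H1 human embryonic stem cells. The labels put 4 libraries in a control group, whose cells received a negative control shRNA, and 4 in a knockdown group, whose cells received shRNA against NAT10, the acetyltransferase that places N4-acetylcytidine on RNA. Both groups were transduced with a GFP-carrying lentivirus, kept for 48 h, enriched for GFP-positive cells and expanded in TeSR-E8 with 0.5 µg/ml puromycin. The data therefore describe selected, expanded populations of 1 cell line without a rescue arm, and the labels do not say how many shRNA sequences were used. Nothing in the labels says that replicates came from separate transductions or cultures, and any p-value reflects scatter among libraries that could be purely technical.

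A processed pseudogene arises when the mRNA of a gene is copied into DNA by the reverse transcriptase of a mobile element and inserted elsewhere in the genome. Such a copy lacks the introns and usually the promoter of its parent, and most copies have gathered changes that break the reading frame. Ribosomal protein genes, which are short and strongly expressed, have more processed copies than most human gene families. Because a copy can be nearly identical to the parent's mRNA, a short read from one can be placed on the other, and how the authors' counting treated reads with several matches, or strand, is not given in the sources used here. Every level of a close copy is therefore uncertain as to its source.

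NAT10 itself was at 2207, 2285, 2048 and 2173 normalized counts in the control libraries and at 1647, 1592, 1625 and 1644 in the knockdown libraries, a log2 change of -0.42 ± 0.04 (SE; limma, Benjamini-Hochberg adjusted p = 5.9e-14). All 12 stem cell markers looked up were measured, with sums of 117308 to 121268 in control and 147298 to 151839 in knockdown libraries, but POU5F1 stood at 13.2 to 31.9 in every library. Of 6 neuroectoderm markers 4 were measured, and all 4 rose. They summed to 5343 to 5674 in control and 12234 to 12579 in knockdown libraries. NES made up most of these sums, with group means of 5197 in control and 11562 in knockdown libraries. PAX6 stood at 1.92 to 3.87 in control and 22.6 to 27.4 in knockdown libraries. PAX6 reached the minimum number of reads met by every gene only in the knockdown group, which favours a rise. Of 6 mesoderm and 6 endoderm markers, 2 each were measured, and 4 of 7 fibroblast markers. Mesoderm sums were 142 to 155 and 121 to 145, endoderm sums 61.6 to 78.3 and 197 to 218, and fibroblast sums 22037 to 22760 and 20700 to 22360. Single markers moved in opposite directions within these sums. In mesoderm MIXL1 rose and TBX6 fell, and of the fibroblast markers COL1A1 and COL1A2 rose, THY1 fell and PDGFRB did not pass. Both endoderm markers rose. The part of these markers in any pseudogene value was not tested, and in bulk RNA a change in the share of cells of a type cannot be told apart from a change in RNA per cell. The libraries held 15574631 to 16305014 reads on genes.

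How far a pseudogene can be told from its parent depends on their sequences, so 2 copies that the results below turn on are shown, each beside its parent. Each line is a stretch of 100 bases in which the copy differs most from the parent's coding sequence, from GENCODE 29 transcripts on GRCh38, and capitals mark the bases that differ. RPL3P4, the copy with the highest level, lies on the minus strand at chr14:98973202-98973301 for the stretch shown and differs from RPL3 at 2 of its 423 bases.
RPL3P4: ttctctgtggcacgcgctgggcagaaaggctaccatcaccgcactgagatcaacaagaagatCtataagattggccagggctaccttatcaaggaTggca
RPL3: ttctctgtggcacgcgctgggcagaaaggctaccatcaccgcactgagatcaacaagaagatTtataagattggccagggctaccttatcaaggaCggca
RPL13P2, on the plus strand at chr20:46099990-46100089 for the stretch shown, differs from RPL13 at 70 positions in 659 bases. It was called lower and its parent higher, and each call was lost under some omissions of a library.
RPL13P2: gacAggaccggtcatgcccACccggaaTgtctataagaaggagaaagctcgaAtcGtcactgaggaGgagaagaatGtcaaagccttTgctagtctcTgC
RPL13: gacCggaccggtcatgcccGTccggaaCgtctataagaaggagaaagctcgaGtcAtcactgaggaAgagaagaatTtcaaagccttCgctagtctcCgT
Identity to the parent transcript was computed for the 151 processed pseudogenes of that annotated type. It ranged from 57.0% to 100%, with a median of 95.8%. In 81 of them every window of 100 bases held at least 1 difference from the parent. In 4, RPL36AP37, RPS28P7, RPL39P3 and RPL21P16, every window was identical, so no read of that length could separate them from the parent's mRNA.

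Signal was concentrated in few copies. The 8 highest pseudogenes held 44.0% of the summed mean signal of all 169 and the 20 highest held 70.0%, while the 103 with a mean under 50 normalized counts held 8.21%. RPL3P4, a copy of the gene for a protein beside the peptidyl transferase centre, had 2304, 2392, 2549 and 2534 normalized counts in control and 2281, 2144, 2135 and 1952 in knockdown libraries. The groups did not overlap, and the log2 change was -0.20 ± 0.04 (SE; limma, adjusted p = 2.4e-05). RPS2P5, a copy of a small-subunit gene, had 1651, 1616, 1603 and 1725 in control and 1878, 1660, 1683 and 1785 in knockdown libraries. Its groups overlapped, and its log2 change of 0.09 ± 0.04 did not pass (limma, adjusted p = 0.0567).

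Among the other 6, RPLP0P6, a copy of the gene for the base of the ribosomal stalk, had 1063, 871, 948 and 966 normalized counts in control and 1089, 1031, 1013 and 1022 in knockdown libraries. These ranges overlapped, and its log2 change of 0.11 ± 0.05 passed (limma, adjusted p = 0.0313). The call was lost when a library was left out: without control replicate 2 the change was 0.07 (adjusted p = 0.223), without control replicate 3 it was 0.11 (0.066), and without knockdown replicate 1 it was 0.09 (0.121). RPL24P4 went from 1545 ± 30.2 to 1458 ± 90.4 normalized counts (SD, n = 4), RPL4P4 from 1408 ± 71.1 to 1346 ± 101, and RPL18AP3 from 1267 ± 113 to 1241 ± 66.6. RPL13P12 went from 1143 ± 53.9 to 1103 ± 45.2 and RPS18P5 from 867 ± 53.6 to 919 ± 33.9. In each of these 5 the groups overlapped, and none passed at an adjusted p of 0.05 in limma.

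**Figure D1:**
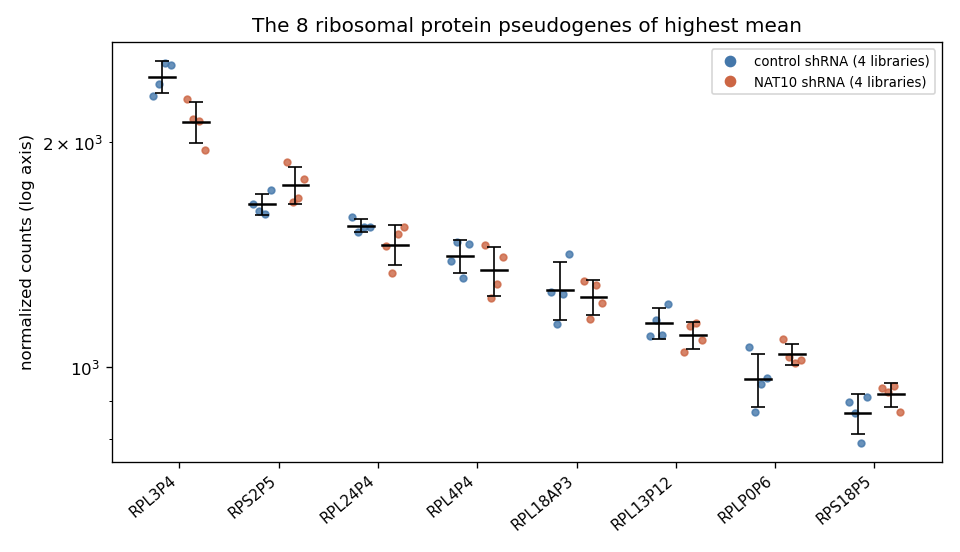
Normalized counts (log axis) of the 8 ribosomal protein pseudogenes of highest mean in each of 4 control and 4 knockdown libraries; points are libraries, horizontal bars group means and error bars 1 SD. RPL3P4 is the one whose groups do not overlap, with 2304 as its lowest control and 2281 as its highest knockdown value.

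The highest copies were also set against the parent per length. In control libraries RPL3P4 had 5780 normalized counts per kb of exon and RPL3 had 5436, so that the copy stood at 106% of its parent on this scale. RPL24P4 stood at 128% of the parent per kb, against 31.1% for RPS2P5, 23.7% for RPL4P4 and 21.7% for RPLP0P6. The parent's length here is the union of its annotated exons, which is longer than its main mRNA and lowers its value per kb. For RPL3 that union is 4787 bases and the coding sequence 1212, so the 106% overstates the standing of RPL3P4. RPL36AP37 was the extreme: 726, 656, 900 and 963 normalized counts in control libraries, 532% of its parent RPL36A at 152, without correction for length. This copy has no difference from RPL36A over its 321 bases, and 8.40% of the 3964 exon bases of RPL36A are also annotated to the read-through gene RPL36A-HNRNPH2, which is not in the table. That share is of the union of exons, and how much of the main mRNA it covers was not determined. Across the 166 pairs the median copy had 0.501% of its parent's normalized counts in control libraries, with a range from 0.0352% to 532%.

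Few of these pseudogenes were called as changed between the groups. Of 169, 15 rose and 7 fell in limma at an adjusted p under 0.05, and 147 did not pass. That is 13.02% of them, where 64.7% of all genes passed (32.3% up and 32.4% down). The 2 groups did not overlap for 13 pseudogenes, or 7.69%, against 56.7% of all genes. By level, of the 103 pseudogenes with a mean under 50, 6 passed (5.83%, against 46.8% of all genes at that level), and of the 66 above it, 11 rose and 5 fell (24.2%, against 71.3%). Those 66 had a median level of 138 normalized counts and a median SE of 0.104, against 480 and 0.058 for all genes there. The shares are therefore not matched for precision. The 1014 other processed pseudogenes in the table passed in 24.95% of cases, 178 up and 75 down, and in 33.2% of cases at a mean of 50 or more.

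The median log2 change was 0.06 over the 169 copies, 0.08 over other processed pseudogenes, 0.12 over the 85 measured of 89 cytosolic ribosomal protein genes and 0.00 over all genes. The median over the copies was 0.04 without control replicate 3 and 0.09 without control replicate 4. Of those 85 ribosomal protein genes, 39 rose and 5 fell, and of the 60 measured parents 28 rose and 2, RPL3 and RPL12, fell. Scaling to library totals lowered the median of all genes by 0.11 on the log2 scale, and the median over the copies became -0.04. Under that scaling 6 copies rose and 18 fell in place of 15 and 7, and over all genes 4079 rose and 7349 fell in place of 5667 and 5680. All 7 that fell were also called lower there, and RPS27AP5, RPL10AP6, RPL13P8, RPL5P9, RPL5P8 and RPSAP19 were also called higher. Leaving out knockdown replicate 2 raised the number that fell from 7 to 12.

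**Figure D2:**
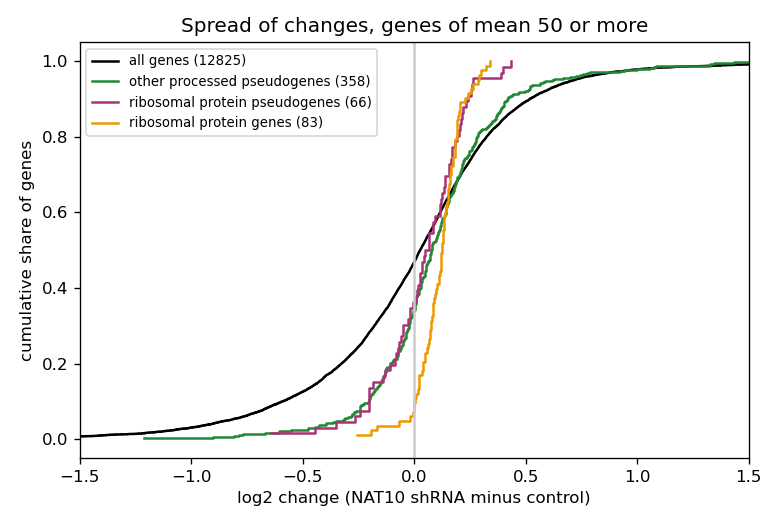
Cumulative share of genes (vertical axis) at or below a log2 change between groups (horizontal axis) for genes with a mean of at least 50 normalized counts: 12825 in all, 358 other processed pseudogenes, 66 ribosomal protein pseudogenes and 83 ribosomal protein genes. The curve of the ribosomal protein pseudogenes rises steeply near its median of 0.06 and lies within -0.64 to 0.44.

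The copies of RPS27A, the gene for a ubiquitin fused to a small-subunit protein, held 3 of the 15 rises, with 4 copies measured. RPS27AP5 had 574, 599, 531 and 660 normalized counts in control and 853, 675, 851 and 746 in knockdown libraries. Every knockdown value lay above every control value, and its log2 change was 0.40 ± 0.08 (limma, adjusted p = 0.00018). RPS27AP16 went from 726 ± 27.1 to 819 ± 57.3 (log2 0.17 ± 0.05, adjusted p = 0.0022) and RPS27AP11 from 215 ± 17.7 to 257 ± 30.3 (0.25 ± 0.08, adjusted p = 0.00468), both with overlapping groups. RPS27A itself rose from 3691 ± 158 to 4513 ± 109 (0.29 ± 0.03, limma, adjusted p = 1.6e-10). None of the 3 differed from RPS27A in the test against the parent, where the adjusted p was 0.112, 0.0737 and 0.719. RPS27AP5 did lie above it without control replicate 2 (0.14, limma, adjusted p = 0.0417), control replicate 4 (0.15, 0.0431) or knockdown replicate 2 (0.18, 0.0165), and the difference ran from 0.04 to 0.18 over the 8 omissions.

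RPL11P3, a copy of the gene for a 5S ribonucleoprotein component, had 196, 221, 185 and 220 normalized counts in control and 281, 243, 222 and 241 in knockdown libraries. The groups did not overlap, and the log2 change was 0.26 ± 0.08 (limma, adjusted p = 0.00337). RPL10AP6 had 48.3, 67.4, 65.1 and 69.3 against 82.4, 85.8, 84.3 and 84.1, without overlap, and rose by 0.44 ± 0.13 (adjusted p = 0.00266). RPL5P9 had 36.7, 37.7, 39.3 and 28.9 against 42.2, 61.3, 61.0 and 42.1 and rose by 0.51 ± 0.17 (adjusted p = 0.00687). A second copy of RPL5, whose protein joins the 5S ribonucleoprotein with RPL11, was RPL5P8 at 18.2 ± 2.58 and 31.7 ± 2.07 (log2 0.78 ± 0.20, adjusted p = 0.000818). Both RPL5 copies had groups that did not overlap. RPL26P19, a copy of a large-subunit gene, went from 358 ± 31.5 to 424 ± 23.4 with overlapping groups (0.24 ± 0.06, adjusted p = 0.000764).

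These 8 rises passed in limma whichever library was left out. The 7 others, RPLP0P6 among them, did not. RPL14P1 rose by 0.13 (adjusted p = 0.0338), but not without control replicate 1 (0.12, 0.0954), control replicate 3 (0.09, 0.172), knockdown replicate 1 (0.09, 0.175) or knockdown replicate 3 (0.12, 0.0674). RPL10P9 rose by 0.18 (adjusted p = 0.022), but not without control replicate 1 (0.16, 0.0659), knockdown replicate 1 (0.15, 0.0774) or knockdown replicate 3 (0.14, 0.109). RPS19P1 rose by 0.21 (adjusted p = 0.0259), with adjusted p of 0.0634, 0.0622, 0.0624 and 0.0729 without replicate 1 or 3 of either group. RPL6P27 rose by 0.20 (adjusted p = 0.039), and 5 of 8 omissions ended the call: control replicates 2 (0.09) and 3 (0.21), and knockdown replicates 1 (0.21), 2 (0.17) and 3 (0.17). RPL13P8 rose by 0.46 (adjusted p = 0.00793), or 0.37 without knockdown replicate 1 (0.0518). RPSAP19, a copy of the laminin receptor gene, rose by 0.84 from 7.25 to 13.6 normalized counts (adjusted p = 0.0172), or by 0.70 without control replicate 2 (0.0602) and 0.74 without knockdown replicate 1 (0.0586). At that control mean it cannot have reached 10 reads in every control library. Its place in the table thus depended on knockdown libraries, which favours a rise.

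Of the 7 copies that fell, 2 came from RPL3. Beside RPL3P4, RPL3P7 went from 816, 872, 690 and 782 normalized counts in control to 727, 711, 654 and 644 in knockdown libraries, with overlapping groups and a log2 change of -0.20 ± 0.06 (limma, adjusted p = 0.00137). RPL3 fell from 26020 ± 480 to 23167 ± 756 (log2 -0.17 ± 0.03, adjusted p = 6e-07). Neither copy differed from RPL3 in its change, with differences of -0.03 ± 0.05 (adjusted p = 0.539) and -0.04 ± 0.06 (adjusted p = 0.593). The third measured copy of RPL3 did not pass, at a mean of 13.4 normalized counts and a log2 change of 0.26.

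Both unprocessed copies fell. RPL32P3, a spliced locus with 4504 exon bases at chr3:129382922-129399655, had 273, 316, 321 and 287 normalized counts in control and 216, 183, 180 and 188 in knockdown libraries. No value overlapped, and the log2 change of -0.64 ± 0.08 (limma, adjusted p = 2.6e-10) was the most negative among copies with a mean of at least 50. RPL32 itself was at 10944 ± 488 and 10933 ± 341 (log2 -0.00 ± 0.03). RPL23AP82 had 66.7, 57.5, 69.9 and 50.1 against 42.2, 47.0, 45.7 and 42.1, again without overlap, with a log2 change of -0.45 ± 0.15 (adjusted p = 0.00703).

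RPL13P2 had 237, 230, 184 and 170 normalized counts in control and 163, 159, 197 and 160 in knockdown libraries, with overlapping groups and a log2 change of -0.26 ± 0.09 (limma, adjusted p = 0.0125). That call was lost without control replicate 1 (-0.19, 0.0913) or control replicate 2 (-0.21, 0.0686). The transcribed copy RPL17P47 fell from 20.6 ± 2.93 to 12.0 ± 3.87 (log2 -0.77, adjusted p = 0.00841), or by 0.56 without knockdown replicate 3 (0.0544). RPL11P1, the lowest of the 169 with a mean of 7.002, had 9.7, 10.9, 11.5 and 9.6 in control and 4.1, 2.0, 4.1 and 4.1 in knockdown libraries. Its groups did not overlap, and its log2 change was -1.35 ± 0.37 (adjusted p = 0.00149), resting on few reads. Every gene in the table reached 10 reads in 4 or more libraries, and RPL11P1 did so only in the control group. That minimum favours a fall in such a gene, so neither the fall nor the lack of overlap is independent of it.

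**Figure D3:**
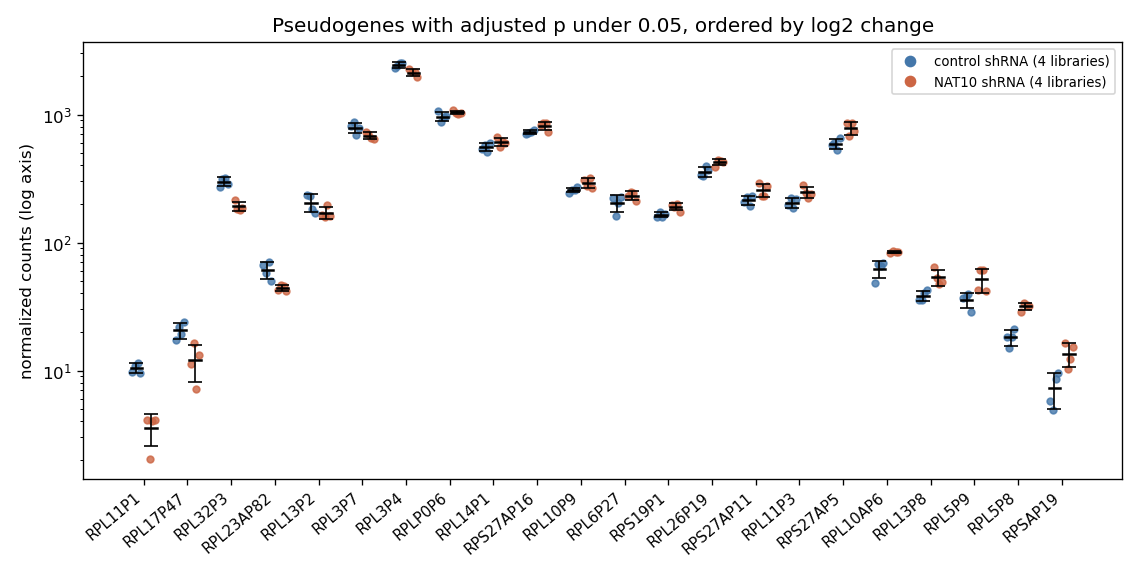
Normalized counts (log axis) in each library for the 22 pseudogenes with an adjusted p under 0.05 in limma, ordered from the most negative log2 change, RPL11P1 at -1.35, to the most positive, RPSAP19 at 0.84; points are libraries, bars means and error bars 1 SD. Most rises are small beside the spread of levels between pseudogenes, and 13 of the 22 passed with any 1 library left out. RPL11P1 reached the minimum of 10 reads only in control libraries, and RPSAP19 could not reach it in control libraries alone.

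The next comparison asked whether a copy and its parent changed by different amounts. In 18 of 166 pairs the change of the copy differed from that of the parent in limma at an adjusted p under 0.05, 5 above the parent and 13 below. That is 10.8% of pairs, where 58.7% of all genes differed from the same parents, summed over the pairs. This background covers genes of every level and is not matched for precision. Of the 102 pairs whose copy had a mean under 50, 7.84% passed, and of the 64 at 50 or more, 15.6%. The median SE over all pairs was 0.21, so a low share does not show that copies followed their parents. In 10 pairs copy and parent both rose and in 2 both fell. In 5 pairs the copy rose and the parent did not pass, and in 3 the copy fell and the parent did not pass. In 52 the parent rose and the copy did not pass, which alone does not show that they differ.

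The 2 pairs called in opposite directions were RPL13P2 with RPL13 and RPL11P1 with RPL11, both named for this after their values were seen. RPL13 rose by 0.08 ± 0.03 (limma, adjusted p = 0.0469) where RPL13P2 fell by 0.26, a difference of -0.34 ± 0.10 (adjusted p = 0.00144). RPL11 rose by 0.09 ± 0.03 (adjusted p = 0.0217), and RPL11P1 lay below it by -1.43 ± 0.39 (adjusted p = 0.000734). The rises of RPL13 and RPL11 were small and not called under library totals, where the log2 changes were -0.03 and -0.02. That of RPL13 was also not called under TMM scaling, in edgeR or DESeq2, or without control replicate 1, 2 or 3 or knockdown replicate 1 or 3, and it was 0.04 without knockdown replicate 3 (limma, adjusted p = 0.321). That of RPL11 was not called without control replicate 1 or 2 or knockdown replicate 1, and it was 0.04 without the last of these (adjusted p = 0.225). The opposite directions of these pairs thus rest on calls of the parents that other settings end. The differences between copy and parent do not depend on that scaling in sign. RPL32P3 lay below RPL32 by -0.64 ± 0.09 (adjusted p = 1.6e-12), and RPL5P8 lay above RPL5 by 0.72 ± 0.22 (adjusted p = 0.002). These 4 differences passed whichever library was left out. For RPL11P1 the omissions do not test the minimum of 10 reads, which it met only in control libraries and which favours a fall.

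The other 14, of which 13 are described, did not pass under every omission. RPL36AP37 went from 811 ± 144 to 841 ± 85.1 normalized counts while RPL36A rose by 0.30 ± 0.08 from 152 to 188, a difference of -0.23 ± 0.07 (limma, adjusted p = 0.00207). It was -0.15 (0.0951) without control replicate 4 and -0.21 (0.208) without knockdown replicate 4. RPL24P4 lay below RPL24 by -0.16 ± 0.06 (adjusted p = 0.0215), and 4 omissions ended that call, control replicates 1 and 2 (-0.13 and -0.16) and knockdown replicates 1 and 2 (-0.15 and -0.12). RPL23AP82 lay below RPL23A by -0.57 ± 0.19 (adjusted p = 0.0083), or -0.48 (0.0537) without control replicate 1. RPL7AP6 lay below RPL7A by -0.26 ± 0.09 (adjusted p = 0.0047), or -0.19 (0.0868) without control replicate 1 and -0.20 (0.0558) without knockdown replicate 2. RPL35AP7 lay below RPL35A by -0.34 ± 0.12 (adjusted p = 0.00762), or -0.21 (0.163) without control replicate 4.

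Above the parent were RPL10AP6 (0.31 ± 0.13, limma, adjusted p = 0.0351), RPL5P24 (0.33 ± 0.14, 0.0293), RPL13P8 (0.39 ± 0.17, 0.0396) and RPL5P9 (0.45 ± 0.17, 0.0143). RPL10AP6 was at 0.21 (0.188) without control replicate 1, 0.31 (0.0534) and 0.31 (0.0527) without knockdown replicates 2 and 3, and 0.29 (0.0688) without knockdown replicate 4. RPL5P24 lost its call in 5 omissions, those of control replicates 1 and 2 and knockdown replicates 1, 2 and 4; without control replicate 2 it was 0.09 (0.614), and its range over all 8 ran from 0.09 to 0.53. RPL13P8 was 0.35 and 0.36 without control replicates 1 and 2 and 0.29 and 0.37 without knockdown replicates 1 and 2. RPL5P9 was 0.34 without control replicate 4 and 0.36 without knockdown replicate 2 or 3. Below the parent at low levels were RPS27P3 (-0.51 ± 0.22, adjusted p = 0.0498), RPS27P13 (-0.98 ± 0.32, 0.00662), RPL17P47 (-0.86 ± 0.28, 0.00462) and RPS3AP21 (-0.86 ± 0.39, 0.0444). Without the library that moved each most, these were -0.37 (knockdown replicate 1), -0.49 (knockdown replicate 4), -0.61 (knockdown replicate 3) and -0.37 (knockdown replicate 3), and none of those values passed. Calls were also lost without control replicates 2 and 4 and knockdown replicate 2 for RPS27P3, without control replicate 2 for RPS27P13, and without control replicates 1, 2 and 4 and knockdown replicate 2 for RPS3AP21. Their groups overlapped except for RPL17P47.

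**Figure D4:**
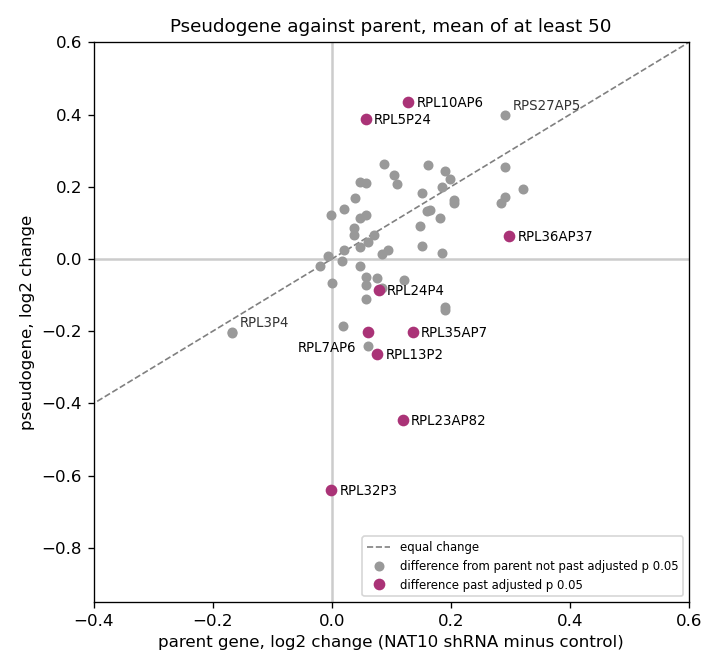
Log2 change between groups of 62 of the 64 pseudogenes with a mean of at least 50 normalized counts (vertical axis) against that of the parent gene (horizontal axis); the dashed line marks equal change and coloured points differ from the parent at an adjusted p under 0.05 in limma. RPL32P3, at -0.64 with its parent near 0, lies farthest from the line.

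As a description across genes, which are not independent replicates and share the same 8 libraries, the log2 changes of copy and parent had a Pearson correlation of 0.165 over 166 pairs, 0.405 over the 64 with a mean of at least 50 and 0.549 over the 41 with a mean of at least 100. Reads moved between a copy and its parent would also enter this value, and their part was not tested. Identity to the parent and mean level had a correlation of 0.25 over 151 copies. Among copies with at least 98% identity, 4 of 39 pairs differed from the parent, all below it. Among those of 95% to 98%, 3 of 44 differed, 1 above and 2 below, and among those under 95% identity 8 of 66 differed, 4 above and 4 below. Of all genes, a median of 61.4%, 60.4% and 61.4% differed from the same parents, so each class lay under this background, which is not matched for level.

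Summed over all members, the pseudogenes had 24933, 24601, 24564 and 26390 normalized counts in control and 26436, 24853, 25777 and 24809 in knockdown libraries. The groups overlapped, and the means differed by 1.38% (exact two-sided permutation test, p = 0.571). That difference ran from 0.0965% to 3.11% with 1 library left out. As a share of all counts the same sum was 0.161%, 0.159%, 0.160% and 0.171% in control and 0.158%, 0.150%, 0.156% and 0.149% in knockdown libraries, lower by 5.98% without overlap (exact permutation p = 0.0286). On this library scale the median gene was lower too, as given above. The smallest two-sided p that 4 against 4 allows is 0.0286, and adjusted over the 14 sums and ratios tested it becomes 0.08, so none of them passed after adjustment.

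A ratio to the parents does not depend on scaling. Copies with a measured parent came to 4.24%, 4.25%, 4.22% and 4.29% of their parents' summed counts in control and to 4.16%, 4.02%, 4.08% and 4.13% in knockdown libraries, without overlap (exact permutation p = 0.0286, adjusted 0.08). Without RPL3P4 the exact permutation p was 0.0857, and without all RPL3 copies 0.229. The parents' sum kept RPL3 in both, so the second ratio is not to the remaining copies' own parents. Large-subunit copies stood at 4.56%, 4.57%, 4.54% and 4.57% of their parents in control and at 4.33%, 4.23%, 4.32% and 4.33% in knockdown libraries, which did not overlap (exact permutation p = 0.0286, adjusted 0.08). This gap, a mean change of -5.73%, was -3.95% without RPL3P4 and -3.23% without all RPL3 copies, in each case without overlap. Here too RPL3 was kept among the parents, so the -3.23% is not relative to the remaining copies' own parents. Small-subunit copies stood at 3.61% ± 0.0632 and 3.69% ± 0.105 of their parents (SD, n = 4), with overlapping groups (exact permutation p = 0.2). The ratio between the large-subunit and small-subunit percentages, the test of the difference between them, was 1.263 ± 0.0190 in control and 1.166 ± 0.0262 in knockdown libraries, without overlap (exact permutation p = 0.0286, adjusted 0.08). The split by subunit was made after earlier values of these data were known.

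By family, 17 parents had at least 4 measured copies. RPL5 had 10, with log2 changes from -0.27 to 0.78, of which RPL5P9 and RPL5P8 rose. RPL13A, RPL15, RPL7A and RPS2 had 6 each and no copy that passed, with ranges of -0.28 to 0.20, -0.20 to 0.18, -0.24 to 0.32 and -0.24 to 0.09. RPL17 had 6 with 1 that fell, and RPL13 had 4 with 1 up and 1 down. In RPS4X, whose protein joins the small subunit, the parent rose by 0.20 while none of its 5 copies passed, at -0.16 to 0.33.

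Many copies sit inside another gene, whose transcripts can contribute reads. Of the 169, 26 overlapped a measured gene on the same strand and 39 only on the opposite strand. Of the 69 pairs of copy and surrounding gene, 25 differed in their change in limma at an adjusted p under 0.05, 19 with the copy above and 6 below. By comparison, 64.8% of all genes, at every level, differed from the same surrounding genes, summed over the pairs. With strand handling not given, neither orientation separates the reads.

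Among the highest copies on the strand of the surrounding gene, RPS12P26 lies in SEMA4B, a semaphorin gene that fell by 0.21 on the log2 scale. The copy had 93.8, 74.3, 86.2 and 97.2 against 90.6, 110, 124 and 90.3 normalized counts, and the difference was 0.44 ± 0.13 (adjusted p = 0.00129). RPL18AP3 in TXNRD1, the thioredoxin reductase gene, differed by 0.10 ± 0.06 (adjusted p = 0.158), RPL36AP37 in PLEKHA7 by -0.17 ± 0.18 (0.457), RPL8P3 in PCOLCE2 by -0.12 ± 0.15 (0.549) and RPS6P25 in GCDH by 0.00 ± 0.11 (0.979). RPL8P3 itself was at 314 ± 15.9 and 329 ± 5.08 normalized counts and RPS6P25 at 132 ± 8.44 and 117 ± 17.2, and neither passed between the groups.

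The next 4 pairs were chosen here after their values were seen. TAOK3, a kinase gene, fell by 0.77 on the log2 scale around RPS2P5, and MAP3K13 fell by 0.48 around RPL4P4, while neither copy passed between groups. The differences were 0.85 ± 0.12 (limma, adjusted p = 2.6e-12) and 0.42 ± 0.07 (2.8e-09). RPL39P3, one of the copies identical to its parent, stood at 72.3 and 81.1 normalized counts in OOEP, which fell from 21.5 to 4.10. RPL6P10 stood at 134 and 135 in EPHA5, which rose from 3.64 to 20.7. OOEP and EPHA5 each reached the minimum of 10 reads only in the group where they are high. So did CD81-AS1, the gene around RPL26P30, at 21.0 ± 5.07 in control and 5.12 ± 2.53 in knockdown libraries (SD, n = 4). Their pairs are counted among those that differed. That minimum favours large changes in such genes.

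**Figure D5:**
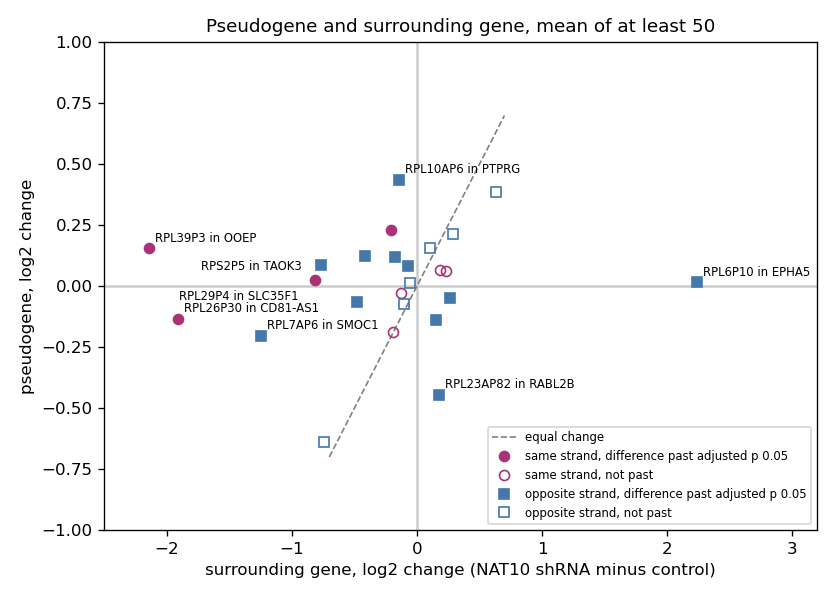
Log2 change between groups of pseudogenes with a mean of at least 50 normalized counts (vertical axis) against that of the gene they overlap (horizontal axis) for 25 of the 26 pairs; circles mark the same strand, squares the opposite strand, filled symbols a difference at an adjusted p under 0.05 in limma, and the dashed line equal change. The pseudogenes lie within -0.64 to 0.44 while the surrounding genes reach from -2.14 in OOEP to 2.24 in EPHA5. The 2 ranges are not matched for level: OOEP, EPHA5 and CD81-AS1 reached the minimum of 10 reads only in the group where they are high.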

How the data were processed

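Polyadenylated RNA of 4 control and 4 NAT10 knockdown libraries was sequenced as DNA nanoballs. Per the submitters' processing notes, which give no role or order, the build was hg38 and the tools were featureCounts 2.0.3, HISAT2 2.2.1, DESeq2 1.26.0, SAMtools 1.12 and fastp 0.21.1. The deposited values are a signal of normalized counts per gene: dividing by a step found in each library gave whole reads for 100% of values (tolerance 1e-06), that is, read counts the authors had divided by size factors of 0.971 to 1.04. Each of the 17546 genes reached 10 reads in 4 or more libraries; 15574631 to 16305014 reads per library bound the precision, and counting error alone does not cover replicate spread. A symbol was found for 17532 genes, and 17225 were in GENCODE 29. Each pseudogene was paired with the gene whose symbol precedes its P and number. Identity was computed with edlib 1.3.9.post1 against the parent's transcripts.

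Groups were compared with limma 3.58.1 (R 4.3.3), trended and robust, on log2(value + 1), which understates changes of low genes, with Benjamini-Hochberg adjustment over all genes at 0.05. The same fit on each gene minus the parent, or minus the surrounding gene, tested differences within a library. Sums were tested with exact permutation tests (scipy 1.17.1). The fits were tested on simulated data. Alternatives were edgeR 4.0.16 and DESeq2 1.42.0 on the recovered reads, other scalings, pseudocounts and level filters, a replicate block and leaving out each library. Named genes were the 8 highest copies, up to 8 rises and 8 falls past the threshold with a mean of at least 30 and no overlap between groups, the 6 largest differences from the parent, the 6 highest copies in a gene on the same strand, the parents and surrounding genes of these, NAT10, and families of at least 4. Other copies that passed were named after their values were seen. The members and gene lists were chosen with earlier results of these data known. A few parents, surrounding genes and sequences within this rule are not reported here, and pairs with them are not drawn.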

Additional observations from a re-analysis of the deposited data

Results flagged for a closer look

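Of 160 sets of 4 libraries examined, 5 held a library far from the other 3, with a gap to its nearest neighbour past Dixon's 95% limit for the set's range; chance alone gives about 1 in 20. Control replicate 4 had the highest share of all counts on the pseudogenes, at 0.171%, and without it the fall in that share was -4.39%. Knockdown replicate 2 had the lowest large-subunit percentage of parents, at 4.23%, and without it the fall was -5.19%. RPL13P2 stood at 197 normalized counts in knockdown replicate 3, above the other knockdown libraries. RPL11P1 stood at 2.04 in knockdown replicate 2, below the other knockdown libraries. The parent gene RPL10 stood at 8055 in knockdown replicate 4, below the other knockdown libraries.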

How the results depend on the processing

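Of the 115 differences computed for single genes and pairs, 31 kept their direction and their side of the threshold under every alternative. Scaling to library totals gave 6 pseudogenes higher and 18 lower, and 28 ribosomal protein genes called, 11 higher and 17 lower; over all genes 4079 were higher and 7349 lower, so 35.7% of calls were higher. The summed signal of the pseudogenes, 1.38% higher by the deposited scaling, was then -5.98%. The log2 change turned negative under that scaling for RPS2P5 (-0.023), RPS18P5 (-0.024), RPL36AP37 (-0.045), RPL8P3 (-0.043), RPLP0 (-0.061), RPS12 (-0.0047), RPL24 (-0.030), RPL5 (-0.051), RPS6 (-0.089), RPS2 (-0.071), RPL11 (-0.021), RPL7A (-0.048), RPL8 (-0.037), RPL13 (-0.033), RPL4 (-0.11) and RPL17 (-0.024). RPL4, near 0, was also at -0.0025 with TMM scaling, and at -0.0061 and -0.0025 in edgeR with and without a low-count filter. DESeq2 called 9 pseudogenes higher and 7 lower; edgeR called 15 and 10.

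Restricting the fits to genes with a mean of at least 50 left 10 differences from the parent (2 above, 8 below) and 16 from the surrounding gene (12 above), since fewer genes enter. The share of all counts changed by -4.55% without RPL3P4 and -4.01% without the RPL3 copies. The percentage of parents changed by -2.06% and -1.47%, with RPL3 kept in the parents' sum in both. The omission of all RPL3 copies and the ratio by subunit were chosen after seeing the data. With 1 library left out, the permutation test cannot pass by construction (p = 0.0571). The changes then ran from -7.07% to -4.39% for the share of all counts, -4.11% to -2.99% for the percentage of parents and -5.94% to -5.19% for its large-subunit part. Pseudogenes called lower numbered 6 to 12, differences above the parent 3 to 6 and below the surrounding gene 3 to 7; the 3 below the surrounding gene came without control replicate 4, and the 3 above the parent came without any 1 of the knockdown replicates.

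Values that crossed 0 over these omissions were small: RPL18AP3 (-0.077 to 0.027), RPL36AP37 (-0.032 to 0.15), RPS6 (-0.018 to 0.052), RPL32 (-0.030 to 0.018), RPL4 (-0.015 to 0.015), ACOXL (-0.12 to 0.075), RPL3P4 against RPL3 (-0.069 to 0.0096), RPL3P7 against RPL3 (-0.090 to 0.018), RPL14P1 against RPL14 (-0.071 to 0.016), RPL26P19 against RPL26 (-0.058 to 0.18), RPL8P3 against RPL8 (-0.048 to 0.043), RPL10P9 against RPL10 (-0.00095 to 0.065), RPS27AP11 against RPS27A (-0.11 to 0.017), RPL6P27 against RPL6 (-0.090 to 0.089) and RPS6P25 against host GCDH (-0.12 to 0.076). The causes were not tested. The replicate numbers did not pair the libraries: deviations of same-numbered libraries correlated at -0.028, -0.015, -0.0076 and -0.10, and with a replicate block 26 pseudogenes passed, 17 higher and 9 lower, including all 22. Depth limits the 103 copies under 50 normalized counts, where the median SE was 0.26.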
